A study of Mus musculus with 3 samples.

Results

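The genes described here are 32 genes of cholesterol and fatty acid synthesis, out of 33605 gene symbols in the deposited tables. They were picked by name, with earlier results of these data known. Of the 32, 31 were found under their current symbol, and Msmo1, which the tables list under an older symbol, was found by its Ensembl identifier. They comprise 17 enzymes of the mevalonate and sterol pathway, 6 genes of sterol sensing and transport, 8 enzymes of fatty acid synthesis, and lipoprotein lipase. Their RNA was measured in splenic B cells of C57BL/6 mice, taken as the cells lacking surface CD43, a marker of activated B cells and of most other leukocytes. All cultures received lipopolysaccharide, a bacterial activator of B cells, together with the T cell cytokine IL-4, for 3 days. Beside these, 1 culture received JQ1+ at 80 nM, 1 received flavopiridol at 30 nM, and 1 received DMSO, the solvent, as the control. JQ1 is a small molecule that displaces BET proteins from acetylated chromatin, and flavopiridol inhibits cyclin-dependent kinases, among them Cdk9, which frees RNA polymerase from its pause near gene starts. The sources used here do not give the age and sex of the mice, or whether the cultures shared mice or pooled them. The comparisons ask how far the transcripts of lipid synthesis in such B cells depend on each drug.

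Cells make cholesterol from acetyl-CoA through mevalonate, isoprenoid diphosphates, squalene and lanosterol, and they make fatty acids from the same precursor through malonyl-CoA. Most enzymes of both routes are transcribed under SREBP factors, membrane proteins that are escorted from the endoplasmic reticulum by Scap and held there by Insig proteins when sterols are plentiful. B cells that enter division after activation build much new membrane, and both routes are known to be active in them.

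Each drug and the control had 1 library, so nothing below could be checked in replicates, and no p-values were computed. Total RNA depleted of ribosomal RNA gave deposited counts that summed to 51247080 in the JQ1+ library, 50184508 in the flavopiridol library and 59786847 in the DMSO library, and the 32 genes held 0.635%, 0.660% and 0.666% of them. Levels are in RPKM, read counts scaled by the authors to gene length and to a library total. The change of a gene is log2((RPKM + 1)/(RPKM + 1)), which understates the change of low genes. The words rose and fell are kept for changes that reached 1 in size, which is 2-fold. A change of 1.5-fold is given as a second, looser mark. The 95% interval given with a ratio of plain RPKM accounts for counting error alone. In bulk RNA, fewer cells of a type and less RNA per cell cannot be told apart. All 6 B cell markers stood above 1 RPKM in each library, and their summed level was 4707 RPKM with JQ1+, 3900 with flavopiridol and 3940 with DMSO. Summed markers of T cells were 2.0, 2.03 and 1.83 RPKM in the same order, of natural killer cells 0.786, 0.572 and 0.310, and of red cells 2.03, 1.96 and 2.17. The dendritic cell list summed to 10.7, 35.1 and 90.0 RPKM, and the list of stroma and endothelium to 5.67, 12.4 and 22.8. Both sums rest on few genes. Batf3, at 2.98, 11.1 and 55.9 RPKM, and Flt3, at 2.55, 14.6 and 26.6, made up most of the dendritic sum. Xcr1 of the same list was highest with flavopiridol, at 0.763, 2.59 and 0.918 RPKM. Pecam1, at 5.18, 11.9 and 21.7 RPKM, made up nearly all of the stroma and endothelium sum. The lists of macrophages and fat cells are given beside lipoprotein lipase.

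With JQ1+, most of the 32 genes stood a little below DMSO, and few crossed the 2-fold mark. Elovl6, a fatty acid elongase, fell, and Lpl, the secreted lipase that releases fatty acids from lipoproteins, rose. The sterol enzymes stood lowest as a group, with a median log2 change of -0.43, against -0.20 for fatty acid synthesis and -0.16 for sensing and transport. Over all 32 genes the median was -0.26, while the median of all 14790 genes whose mean over the libraries reached 1 RPKM was -0.08. In all, 27 of the 32 lay below 0, where 59.7% of all genes did, and 24 lay below 0 after rescaling by the median of ratios, where 48.4% of all genes did. The fold marks caught 1 gene higher (background 1.98%) and 1 lower (background 5.29%) at 2-fold, and 1 higher (background 6.1%) and 6 lower (background 12.7%) at 1.5-fold. Rescaled by the median of ratios, 3 were lower at 1.5-fold, Hsd17b7, Elovl6 and Fads2, where 10.6% of all genes were. All 32 passed the mean of 1 RPKM, but Lpl did so through the drug libraries only.

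With flavopiridol, the same pair of genes crossed the 2-fold mark and the other 30 stayed within 1.5-fold. The median log2 change of the 32 was -0.02, beside 0.13 for all genes. At 2-fold, Lpl was the 1 gene higher (background 3.55%) and Elovl6 the 1 gene lower (background 2.88%). No further gene was added at 1.5-fold, where the background was 12.3% higher and 7.56% lower, but Fdps joined Elovl6 as lower there after rescaling by the median of ratios, where 10.8% of all genes were. Below 0 lay 17 of the 32, where 36.2% of all genes did, and 26 lay there after rescaling by the median of ratios, where 53.1% of all genes did, so the sign of the smaller values depends on the scaling. The median was -0.03 for sterol enzymes, -0.11 for sensing and transport and 0.00 for fatty acid synthesis. Both drug comparisons use the same DMSO library, so their values are set side by side here and no likeness between them is counted.

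Set directly against flavopiridol, JQ1+ left 26 of the 32 genes below 0, where 69.9% of all genes lay, and 17 after rescaling by the median of ratios, where 46.6% of all genes lay. The median was -0.28 for the 32 and -0.21 for all genes. Idi1 was the 1 gene lower at 2-fold (background 6.87%), and 4 genes were lower at 1.5-fold (background 20.9%). By the median of ratios Idi1 alone was lower at 1.5-fold, where 11.01% of all genes were. None was higher at 2-fold (background 2.06%) or at 1.5-fold (background 5.51%). The drugs are not structural analogs and were used at different doses, so these values describe the cultures and not the potency of the compounds.

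**Figure D1:**
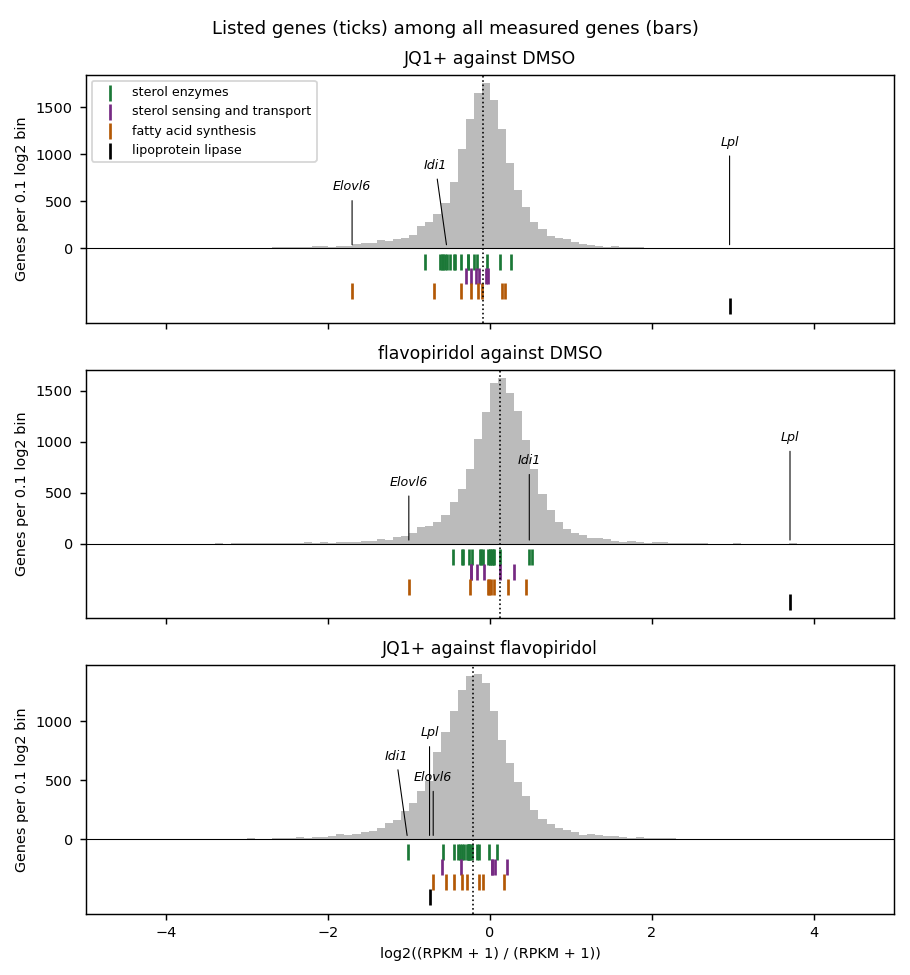
Histograms of the log2 change, log2((RPKM + 1)/(RPKM + 1)), for the 14790 genes whose mean reached 1 RPKM, in bins of 0.1, with the 32 genes as coloured ticks below by role; 1 panel for each comparison, and the dotted line marks the median of all genes. Lpl lies at 2.96 with JQ1+ and 3.71 with flavopiridol, Elovl6 at -1.70 and -1.003, and the sterol enzymes sit mostly left of the dotted line in the top panel.

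The level of the 32 genes ranged widely. Scd1, the desaturase that puts the first double bond into saturated fatty acids, stood at 688 RPKM with JQ1+, 609 with flavopiridol and 604 with DMSO. Its paralogue Scd2 stood at 632, 669 and 571 RPKM, and these were the highest levels of the 32 in each library. Insig1 came next with JQ1+ and with DMSO, at 306 and 313 RPKM. With flavopiridol it stood at 265.6 RPKM, just below Cyp51 at 266.8. At the low end were Insig2, with 6.91, 6.80 and 7.69 RPKM, Elovl6 and Lpl. Summed over the 17 sterol enzymes, the level was 1371 RPKM with JQ1+, 1761 with flavopiridol and 1792 with DMSO, so JQ1+ was 1.31-fold below DMSO. Between the drugs the sterol enzyme median was -0.27 beside -0.21 for all genes, and -0.00032 by the median of ratios. The 8 fatty acid enzymes summed to 1963, 2066 and 2000 RPKM, a sum dominated by Scd1 and Scd2.

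**Figure D2:**
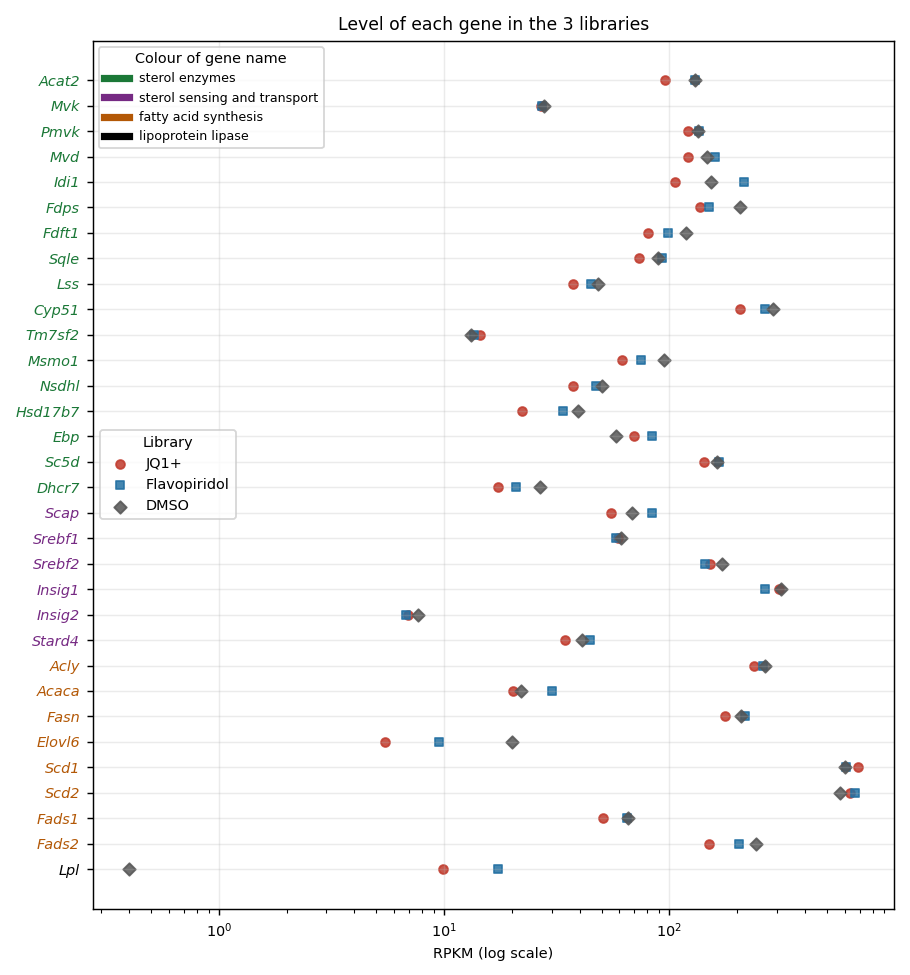
RPKM on a log axis for each of the 32 genes in the JQ1+, flavopiridol and DMSO libraries, 1 point a library, with gene names coloured by role. The points of most genes nearly coincide, while Lpl is at 9.90, 17.3 and 0.399 RPKM and Elovl6 at 5.44, 9.48 and 19.999 RPKM.

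The early steps of the pathway turn acetyl-CoA into isoprenoid diphosphates. Acat2, which joins a pair of acetyl-CoA molecules, stood at 95.6 RPKM with JQ1+, 130.3 with flavopiridol and 130.3 with DMSO, 1.36-fold lower with JQ1+ than with DMSO (interval 1.28 to 1.45). Mevalonate kinase, Mvk, hardly differed, at 27.0, 27.2 and 27.8 RPKM, and phosphomevalonate kinase, Pmvk, stood at 120.7, 134.9 and 134.7 RPKM. Mvd, which decarboxylates the product to isopentenyl diphosphate, had 121.7, 160.2 and 147.4 RPKM. Acat2 with JQ1+ was the furthest from DMSO of these 4.

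Idi1, which interconverts isopentenyl diphosphate and its isomer, was the sterol enzyme that separated the drugs most. It stood at 105.9 RPKM with JQ1+, 215.4 with flavopiridol and 153.5 with DMSO, so the drug libraries lay on either side of the control. It was 1.45-fold lower with JQ1+ than with DMSO (interval 1.38 to 1.52) and 1.40-fold higher with flavopiridol (interval 1.34 to 1.46). Between the drugs it was 2.03-fold lower with JQ1+ (interval 1.94 to 2.14), a log2 difference of -1.02, just past the 2-fold mark. That call is lost when the libraries are rescaled: the log2 difference was -0.74 by the median of ratios and -0.92 in CPM, counts scaled to the sum of each library's counts. Fdps, the next enzyme, which makes farnesyl diphosphate, differed in another way. It stood at 137.4 RPKM with JQ1+, 150.8 with flavopiridol and 206.7 with DMSO, both drugs below the control, 1.505-fold for JQ1+ (interval 1.40 to 1.62) and 1.37-fold for flavopiridol (interval 1.27 to 1.48). The ratio of Idi1 to Fdps within a library was accordingly 0.771 with JQ1+, 1.43 with flavopiridol and 0.742 with DMSO.

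Farnesyl diphosphate is condensed to squalene, oxidised and folded into lanosterol. Squalene synthase, Fdft1, stood at 80.4 RPKM with JQ1+, 98.5 with flavopiridol and 118.2 with DMSO. Squalene epoxidase, Sqle, had 73.6, 92.6 and 89.4 RPKM, and lanosterol synthase, Lss, had 37.3, 44.7 and 48.2 RPKM. JQ1+ was the lowest library for all 3, with log2 changes against DMSO of -0.55 for Fdft1, -0.28 for Sqle and -0.36 for Lss. Flavopiridol stood nearer the control, at -0.26, 0.05 and -0.11.

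Lanosterol is then trimmed of its extra methyl groups, and of the 4 sterol enzymes that stood at least 1.5-fold below DMSO with JQ1+, Msmo1 and Hsd17b7 act here. After rescaling by the median of ratios Hsd17b7 alone of the 4 stayed past that mark, at -0.70, while Fdps was at -0.48, Msmo1 at -0.51 and Dhcr7 at -0.49. Cyp51, the demethylase that starts the trimming, stood at 206.5 RPKM with JQ1+, 266.8 with flavopiridol and 290.0 with DMSO, a log2 change of -0.49 with JQ1+ and -0.12 with flavopiridol. Msmo1, the methyl sterol oxidase, had 61.6, 74.7 and 94.7 RPKM, 1.54-fold lower with JQ1+ than with DMSO (interval 1.46 to 1.61). Nsdhl, a dehydrogenase that acts with Msmo1, had 37.2, 47.5 and 50.5 RPKM. Hsd17b7, the reductase that completes each removal, stood furthest from the control among the sterol enzymes. It was at 22.2 RPKM with JQ1+, 33.6 with flavopiridol and 39.4 with DMSO, 1.77-fold lower with JQ1+ (interval 1.62 to 1.94). For these 4 enzymes the order of the libraries was the same: JQ1+ lowest, flavopiridol between, DMSO highest.

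The last steps move and remove double bonds. Dhcr7, the reductase that yields cholesterol, stood at 17.3 RPKM with JQ1+, 20.8 with flavopiridol and 26.6 with DMSO, again in that order, and it was 1.53-fold lower with JQ1+ than with DMSO (interval 1.36 to 1.73). Sc5d, a desaturase, had 142.4, 165.6 and 162.7 RPKM. Ebp and Tm7sf2 were the sterol enzymes that stood above DMSO with JQ1+. Ebp, the isomerase that shifts the double bond of the ring, had 69.7 RPKM with JQ1+, 83.7 with flavopiridol and 58.3 with DMSO, so the control was the lowest library, with a ratio of 1.44 for flavopiridol (interval 1.32 to 1.56). Tm7sf2, a sterol reductase, had 14.5, 13.6 and 13.2 RPKM, which differ little.

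**Figure D3:**
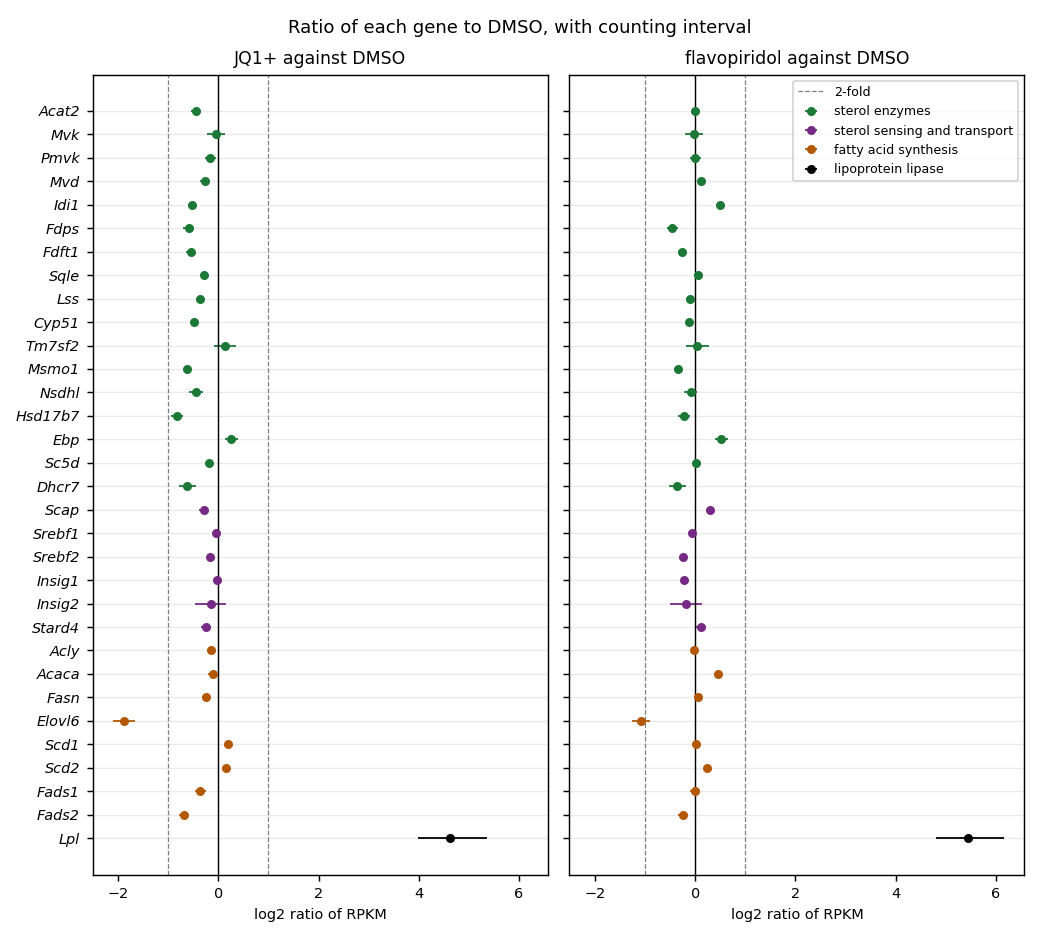
Log2 ratio of plain RPKM for each of the 32 genes with its 95% counting interval, with JQ1+ against DMSO on the left and flavopiridol against DMSO on the right; colours give the role and dashed lines mark 2-fold. Elovl6 and Lpl lie past the dashed lines in both panels, and Hsd17b7 is the sterol enzyme farthest to the left with JQ1+.

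The promoters of several of the 32 genes are shown for reference, and no change in RNA was related to their letters. RefSeq promoters of the assembly GRCm38.p6 were matched for 24 of the 32 genes, and the 250 bases upstream of the start were searched on both strands; a gene with several starts counts as holding a motif when any of its windows does. The counts in the deposited tables were made on mm9 per the submitters' processing notes, so no coordinate is carried between the builds. Each line gives the 150 bases directly upstream, 5′ to 3′ on the gene's strand, and capitals mark CCAAT on either strand (CCAAT or ATTGG) and the E-box CACGTG.
Hsd17b7, chr1:169969206-169969355, minus strand: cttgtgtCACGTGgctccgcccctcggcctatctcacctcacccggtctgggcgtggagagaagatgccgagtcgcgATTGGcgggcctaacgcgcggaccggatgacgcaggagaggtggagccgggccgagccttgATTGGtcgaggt
Msmo1, chr8:64733579-64733728, minus strand: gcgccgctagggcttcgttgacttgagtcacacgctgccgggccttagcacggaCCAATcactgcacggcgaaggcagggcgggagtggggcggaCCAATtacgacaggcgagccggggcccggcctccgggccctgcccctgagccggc
Idi1, chr13:8885456-8885605, plus strand: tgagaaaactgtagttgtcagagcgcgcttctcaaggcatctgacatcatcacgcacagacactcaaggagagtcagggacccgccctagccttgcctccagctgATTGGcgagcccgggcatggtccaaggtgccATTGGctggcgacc
Insig1, chr5:28071262-28071411, plus strand: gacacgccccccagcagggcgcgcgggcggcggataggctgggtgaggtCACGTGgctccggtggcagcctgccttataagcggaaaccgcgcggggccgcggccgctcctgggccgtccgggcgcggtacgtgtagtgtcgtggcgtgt
Elovl6, chr3:129532236-129532385, plus strand: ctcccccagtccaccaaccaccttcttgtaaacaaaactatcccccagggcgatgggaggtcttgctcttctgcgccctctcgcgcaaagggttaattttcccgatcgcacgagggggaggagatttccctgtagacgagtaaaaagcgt
Fads2, chr19:10101504-10101653, minus strand: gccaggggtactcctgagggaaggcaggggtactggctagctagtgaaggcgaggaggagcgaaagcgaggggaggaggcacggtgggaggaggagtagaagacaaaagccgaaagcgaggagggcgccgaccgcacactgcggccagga

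Hsd17b7, Msmo1 and Idi1 are the sterol enzymes that stood out above, Insig1 is the sensing gene with the highest level, and Elovl6 and Fads2 are the fatty acid enzymes lowest against DMSO with JQ1+. CCAAT was found in 18 of the 24 promoters searched, against 37.5% of 27025 genes and 40.8% of the 8683 genes that had a promoter and passed the mean of 1 RPKM. By role it was in 13 of 14 sterol enzymes, 4 of 5 genes of sensing and transport, and 1 of 5 fatty acid enzymes, Fasn. In Insig1 it lies upstream of the stretch printed. The GC box GGGCGG was in 20 of 24, against 35.4% of all genes and 63.3% of the genes that passed. CACGTG was in 5 of 24, namely Hsd17b7, Sc5d, Dhcr7, Scap and Insig1, against 6.86% and 10.01%. The letters TCACNCCAC, a strict form of the sterol regulatory element, were in 0 of 24, against 1.22% and 1.26%. Matches of different motifs did not overlap each other. A match describes letters in a window and not a bound site, and these shares were not tested.

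With JQ1+ the genes of sterol sensing and transport stood nearer to DMSO than the sterol enzymes, with a median log2 change of -0.16 beside -0.43. With flavopiridol the sterol enzymes stood nearer, at -0.03 beside -0.11. Srebf2, the SREBP factor most tied to sterol synthesis, stood at 151.2 RPKM with JQ1+, 144.6 with flavopiridol and 170.8 with DMSO. Srebf1, the factor most tied to fatty acid synthesis, had 59.2, 58.2 and 61.1 RPKM. The ratio of Srebf2 to Srebf1 was 2.55 with JQ1+, 2.48 with flavopiridol and 2.79 with DMSO, so the balance of the factors at the RNA level was much the same. Insig1, itself a known SREBP target, differed from DMSO by -0.03 with JQ1+ and -0.23 with flavopiridol, while Insig2, the less regulated form, differed by -0.14 and -0.16. Insig1 exceeded Insig2 by 44.4-fold with JQ1+, 39.1-fold with flavopiridol and 40.7-fold with DMSO in RPKM.

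Scap, the escort of SREBP, was the sensing gene that differed most between the drugs. It stood at 55.4 RPKM with JQ1+, 83.8 with flavopiridol and 68.0 with DMSO, and was 1.51-fold lower with JQ1+ than with flavopiridol (interval 1.43 to 1.61), a difference short of 1.5-fold under the rescalings tried. As for Idi1, the drug libraries lay on either side of the control. Stard4, a soluble carrier of cholesterol, had 34.6, 44.6 and 40.9 RPKM. Against DMSO all 6 genes of sensing and transport lay below 0 with JQ1+, by amounts between -0.29 and -0.03, and Insig1 and Srebf1 lay above 0, at 0.08 and 0.06, after rescaling by the median of ratios.

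Fatty acid synthesis starts with Acly, which releases acetyl-CoA from citrate, Acaca, which makes malonyl-CoA, and Fasn, the synthase. Acly stood at 238.9 RPKM with JQ1+, 261.8 with flavopiridol and 265.7 with DMSO. Acaca stood at 20.3, 30.1 and 21.8 RPKM, highest with flavopiridol, with a log2 change of 0.45 there and -0.10 with JQ1+. Fasn stood at 177.0, 216.5 and 209.0 RPKM. Within this core route no gene reached 1.5-fold in any comparison.

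The enzyme that lengthens the product, Elovl6, was the clear exception. It stood at 5.44 RPKM with JQ1+, 9.48 with flavopiridol and 19.999 with DMSO. It fell 3.67-fold with JQ1+ (interval 3.16 to 4.28) and 2.11-fold with flavopiridol (interval 1.86 to 2.40), log2 changes of -1.70 and -1.003. These placed it 244th from the lowest of 14790 genes with JQ1+ and 423rd with flavopiridol. The flavopiridol value sits on the 2-fold mark and is not called with a pseudocount of 5 RPKM, where it is -0.79. Between the drugs Elovl6 was 1.74-fold lower with JQ1+ (interval 1.46 to 2.07). Relative to the synthase upstream of it, the ratio of Elovl6 to Fasn was 0.0307 with JQ1+, 0.0438 with flavopiridol and 0.0957 with DMSO.

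The desaturases differed among themselves. Scd1 and Scd2, which make monounsaturated fatty acids, stood slightly above DMSO with JQ1+, with log2 changes of 0.19 and 0.15, and at 0.01 and 0.23 with flavopiridol, where Scd1 is at -0.16 after rescaling by the median of ratios. They are close paralogues, and the sources used here do not say how reads were split between them. Fads2, which starts the desaturation of polyunsaturated fatty acids, stood at 150.5 RPKM with JQ1+, 204.6 with flavopiridol and 243.4 with DMSO, 1.62-fold lower with JQ1+ than with DMSO (interval 1.52 to 1.72). Fads1, which acts later in the same route, had 50.9, 65.0 and 65.5 RPKM. Fads2 exceeded Fads1 by 2.96-fold with JQ1+, 3.15-fold with flavopiridol and 3.72-fold with DMSO.

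Lpl was nearly silent in the control and rose with both drugs. It stood at 9.90 RPKM with JQ1+ and 17.3 with flavopiridol, against 0.399 with DMSO, from 1271, 2022 and 57 deposited counts. The ratio to DMSO was 24.8 with JQ1+ (interval 15.9 to 41.0) and 43.4 with flavopiridol (interval 27.9 to 71.4), log2 changes of 2.96 and 3.71 with the pseudocount. Among 14790 genes it ranked 4th from the highest with JQ1+ and 5th with flavopiridol. It entered that set through the drug libraries only, so the ranks lend the rise no further support. With JQ1+ it was 1.75-fold lower than with flavopiridol (interval 1.55 to 1.97).

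Lpl is known best from fat, muscle and macrophages, so markers of fat cells and macrophages were set beside it. Of the 5 fat cell markers, 0 stood at 1 RPKM or above with JQ1+, 1 with flavopiridol and 0 with DMSO, and they summed to 0.335, 1.77 and 0.336 RPKM. The marker above 1 RPKM was Adipoq, at 0.307 RPKM with JQ1+, 1.39 with flavopiridol and 0.206 with DMSO. It had 8, 33 and 6 deposited counts, and like Lpl it was highest with flavopiridol. Fabp4, Cidec and Lep were at 0 with JQ1+, Plin1 at 0 with flavopiridol, and Fabp4 and Plin1 at 0 with DMSO. Of the 8 markers of macrophages and monocytes, 3, 3 and 2 stood at 1 RPKM or above, and they summed to 20.1 RPKM with JQ1+, 33.8 with flavopiridol and 28.4 with DMSO. Most of that sum was Cd68, at 12.5, 19.7 and 20.5 RPKM, and Csf1r, at 4.03, 3.95 and 6.41. Itgam, Cd14, Fcgr1 and Mertk stayed below 1 RPKM in every library, and each was above its DMSO value with both drugs. These differences rest on few deposited counts. With JQ1+, flavopiridol and DMSO they were 61, 38 and 33 for Itgam and 6, 4 and 4 for Cd14. For Fcgr1 they were 4, 2 and 0, and for Mertk 5, 6 and 2. Emr1, the gene of the macrophage antigen F4/80, was at 0.801, 9.47 and 0.922 RPKM, and Lyz2, macrophage lysozyme, at 1.94, 0.044 and 0.181 RPKM. Emr1 was high beside Lpl in the flavopiridol library, and Lyz2 was higher in the JQ1+ library than in the others. The part of any of these markers in the Lpl values was not tested. Gpihbp1, which anchors the lipase on capillaries, was listed at 0 in all 3 libraries, and Cd36, a fatty acid transporter, stood at 69.1, 75.8 and 43.2 RPKM.

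Genes around the pathway that are not among the 32 were described from short lists. Over all genes, 1.98% were past 2-fold higher and 5.29% lower with JQ1+, and 3.55% and 2.88% with flavopiridol. For JQ1+ against flavopiridol the shares were 2.06% and 6.87%. At those shares a list this short would hold few or no such genes. For sterol export and targets of the liver X receptor, 9 of 12 genes passed the mean of 1 RPKM, and their median was 0.34 with JQ1+, -0.08 with flavopiridol and 0.36 for JQ1+ against flavopiridol. Abcg1, a transporter that exports cholesterol, stood at 96.7 RPKM with JQ1+, 50.5 with flavopiridol and 26.0 with DMSO. It rose 3.72-fold with JQ1+ (interval 3.43 to 4.04), and its log2 change of 0.93 with flavopiridol did not reach the mark. It was the 1 gene of the 9 past 2-fold against DMSO with JQ1+, and none was with flavopiridol. Mylip, a ligase that degrades lipoprotein receptors, stood at 31.2, 12.4 and 16.1 RPKM, and it rose 2.51-fold with JQ1+ relative to flavopiridol (interval 2.16 to 2.94). Abca1, the other main exporter, was low, at 2.63, 2.08 and 1.06 RPKM. Its plain ratio to DMSO was 2.49 with JQ1+ (interval 1.91 to 3.27) and 1.97 with flavopiridol (interval 1.48 to 2.63). With the pseudocount its log2 changes were 0.82 and 0.58, short of the mark.

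The list of genes whose proteins cut SREBP or degrade sterol-regulated proteins stood close to all genes in its median. All 8 genes of that list passed the filter, none crossed 2-fold in any comparison, and their median was -0.08 with JQ1+ and 0.14 with flavopiridol, close to the -0.08 and 0.13 of all genes. In the list of fatty acid activation, elongation and supply, 13 of 18 genes passed. Their median was -0.28 with JQ1+ and 0.10 with flavopiridol, and none crossed 2-fold with JQ1+. Fabp5, a fatty acid binding protein, stood at 20.3 RPKM with JQ1+, 95.3 with flavopiridol and 33.8 with DMSO. It rose 2.82-fold with flavopiridol (interval 2.60 to 3.05), and JQ1+ was 4.70-fold below flavopiridol (interval 4.26 to 5.20).

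**Figure D4:**
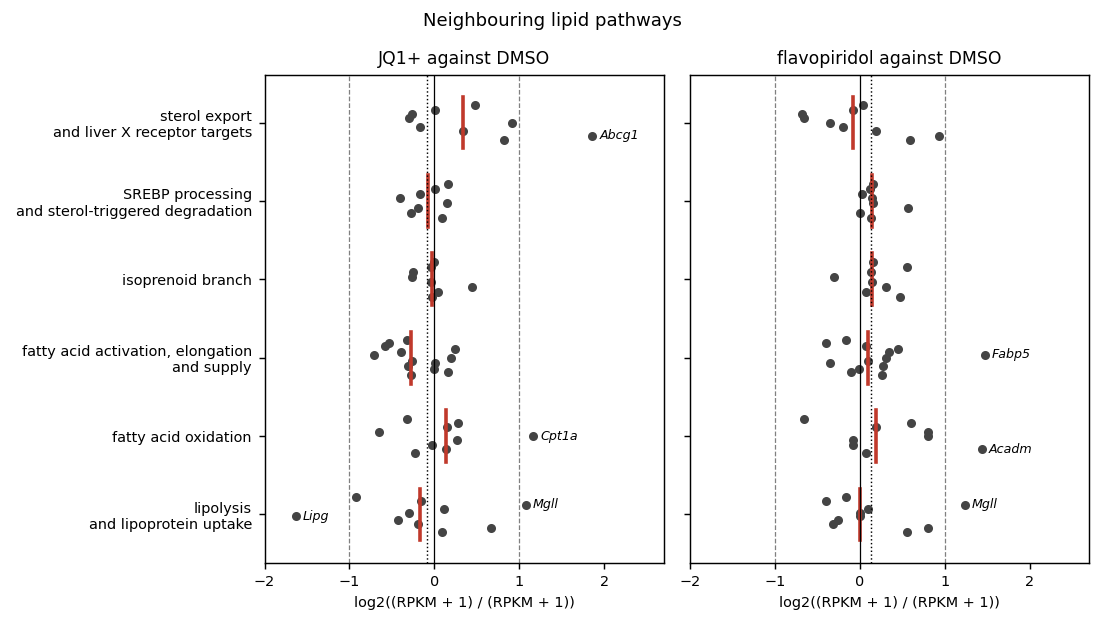
Log2 change, log2((RPKM + 1)/(RPKM + 1)), of each gene whose mean reached 1 RPKM in the 6 surrounding gene lists, with JQ1+ against DMSO on the left and flavopiridol against DMSO on the right, 1 point a gene. Red bars mark list medians, the dotted line the median of all genes and dashed lines 2-fold; Abcg1 lies at 1.86 with JQ1+ and Fabp5 at 1.47 with flavopiridol.

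Some values carry a limit from gene overlap. In GENCODE M21, matched by identifier, Fdps shares 26.7% of its exon bases with the gene model Gm43738 on the same strand, and Tm7sf2 shares 12.1% with Vps51 on the same strand. Fdft1 shares 18.3% with Ctsb on the opposite strand, and Ctsb stood at 66.5 RPKM with JQ1+, 45.6 with flavopiridol and 50.8 with DMSO. Scap and Idi1 share 13.2% and 9.22% with unnamed or uncharacterised models on the opposite strand. The sources used here do not say whether the authors' counting used strand, so reads of such pairs may be mixed. Hsd17b7, Msmo1, Dhcr7, Fads2 and Lpl overlap no other gene's exons in that annotation, and Elovl6 shares 0.529% of its exon bases with an antisense model.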

How the data were processed

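The authors deposited, for each of 3 libraries, a table of 33700 genes giving its count and its RPKM beside the gene's identifier and symbol. Per the file headers, the count is of reads per gene, and the deposited values are whole numbers with no normalisation. The second value is the authors' RPKM, a level per kilobase of gene relative to a library total. The build was mm9, per the submitters' processing notes; the sources used here name no aligner, counter, annotation or strand setting. RNA was depleted of ribosomal RNA with Ribo-Zero, per the labels' protocols. The culture label of the drug samples repeats the DMSO wording, so groups follow the treatment label.

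Tables were joined by identifier, and of the rows that shared a symbol (94 symbols) the one highest on average was used. Changes are log2 of RPKM with a pseudocount of 1, over genes whose mean reached 1 RPKM. The total behind the RPKM was found from exon lengths of the later annotation GENCODE M21. Counts summed to 2.72, 2.92 and 2.84 times that total in the JQ1+, flavopiridol and DMSO libraries. The total rests on the 45.7%, 45.8% and 45.9% of genes with at least 500 counts that gave 1 common value within 0.1%. How reads were counted is not known, so the counts were taken not to be independent fragments. For intervals they were divided by 2.83, and exact conditional binomial intervals were computed (scipy 1.17.1). No count model was fitted, since each group has 1 library. The scripts were tested on simulated data (python 3.11.15, pandas 2.3.3, numpy 2.4.6). The members, roles, lists and marker lists were chosen with earlier results of these data known; every member is named, and list genes were named when past 2-fold, at most 4 a comparison. Those named for their background, such as Abca1, Cd36, Emr1 and Lyz2, were chosen after their values were seen. Alternatives were other pseudocounts, filters, scalings and a 1.5-fold mark.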

Additional observations from a re-analysis of the deposited data

How the results depend on the processing

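No paired analysis was possible because each group has 1 library, and no library could be left out. The counts of members past 2-fold against DMSO were 1 higher and 1 lower for each drug. They moved only where the mark was 1.5-fold (6 lower with JQ1+) or the pseudocount 5 RPKM (0 lower with flavopiridol). The lone gene lower with JQ1+ than with flavopiridol, Idi1, was not called with a pseudocount of 5 RPKM, by the median of ratios, in CPM or in CPM of protein-coding genes (0 genes each), and at 1.5-fold the count was 4. With JQ1+ against DMSO the median of the 32 genes was -0.15 by the median of ratios and -0.17 in CPM of protein-coding genes. With flavopiridol against DMSO it was -0.19 by the median of ratios. For JQ1+ against flavopiridol it was -0.0068 by the median of ratios, -0.18 in CPM and -0.11 in CPM of protein-coding genes. The median of ratios moves the median of all genes by 0.09, -0.16 and 0.25 in these 3 comparisons. The share of called genes that were lower went with it, at 64.2% for JQ1+ against DMSO (72.7% as deposited), 61.2% for flavopiridol against DMSO (44.8%) and 53.0% for JQ1+ against flavopiridol (77.0%). The sterol enzyme median stayed below 0 under every setting run, between -0.44 and -0.33 with JQ1+ between -0.20 and -0.01 with flavopiridol, and between -0.28 and -0.00032 for JQ1+ against flavopiridol. At 1.5-fold, chosen with the scalings after seeing the data, 3 genes were lower with JQ1+ against DMSO by the median of ratios and by either CPM; with flavopiridol 2 were lower by the median of ratios, and for JQ1+ against flavopiridol 1 was. Matching 31 genes by symbol alone, added after seeing the data, changed the sign of no median. The single members called past 2-fold were Lpl and Elovl6 with each drug, and Idi1 between the drugs. Taken over the alternatives, 14, 13 and 3 of their 14, 14 and 7 values stayed past 2-fold. All kept their direction. That says little, as pseudocounts and filters cannot reverse a sign and the scalings shift all genes by far less than 2-fold. Over all 32 genes, 9, 21 and 16 of 224 values changed sign in the 3 comparisons. Lpl with DMSO rests on 57 deposited counts, before the division by 2.83. Its ratio is therefore the least certain of those printed for the 32 genes.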

Other observations

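Routes that consume or import lipid showed single genes that crossed 2-fold within lists of small median change. In the fatty acid oxidation list, 9 of 11 genes passed the mean of 1 RPKM, with a median of 0.14 with JQ1+ and 0.19 with flavopiridol. Cpt1a, which admits fatty acids to mitochondria, stood at 18.9 RPKM with JQ1+, 14.5 with flavopiridol and 7.89 with DMSO, and it rose 2.40-fold with JQ1+ (interval 2.06 to 2.80). Acadm, a dehydrogenase of medium-chain fatty acids, stood at 50.2, 124.3 and 45.5 RPKM, and it rose 2.73-fold with flavopiridol (interval 2.53 to 2.95). Cpt2, the partner of Cpt1a on the inner membrane, stood at 8.32, 24.4 and 13.6 RPKM, 2.93-fold lower with JQ1+ than with flavopiridol (interval 2.40 to 3.61).

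In the list of lipolysis and lipoprotein uptake, 10 of 13 genes passed, with a median of -0.17 with JQ1+ and 0.00 with flavopiridol. Lipg, a lipase of the same family as Lpl, stood at 4.41 RPKM with JQ1+, 15.8 with flavopiridol and 15.8 with DMSO, and it fell 3.58-fold with JQ1+ (interval 2.90 to 4.45). Vldlr of this list was not counted, as its mean did not reach 1 RPKM. It stood at 0.095, 0.859 and 1.46 RPKM, 15.4-fold lower with JQ1+ than with DMSO (interval 6.85 to 42.9). Mgll, which splits monoglycerides, stood at 2.91, 3.36 and 0.859 RPKM, and passed the filter through the drug libraries only. It rose 3.39-fold with JQ1+ (interval 2.24 to 5.26) and 3.92-fold with flavopiridol (interval 2.59 to 6.07). The isoprenoid branch, which uses farnesyl diphosphate for other products, had all 8 genes measured and none past 2-fold, with medians of -0.03 with JQ1+ and 0.15 with flavopiridol.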
